A study of Danio rerio with 6 samples.

Results

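The Notch receptor and ligand genes of zebrafish neuroblastoma were examined: the receptors notch1a, notch1b, notch2 and notch3, the Delta ligands dla, dlc, dld and dll4, and the Jagged ligands jag1a and jag1b. The members were taken by symbol from a table of 14781 gene symbols, and all 10 were present. Neuroblastoma is a tumour of the sympathetic nervous system. The tumours came from transgenic zebrafish overexpressing the oncogene MYCN, and 3 libraries were from fish with MYCN alone (MYCN-only) and 3 from fish in which gas7 was also knocked out (knockout). All 6 libraries thus carried the MYCN transgene, and the title of the series concerns spread of the tumour when GAS7, a protein that binds membranes and actin, is lost. The sources used here do not give the promoter of the transgene, the gas7 allele, the age of the fish, or whether a library was a single tumour or a pool. Nothing in the labels states that replicates of a genotype came from separate fish, and p-values therefore measure only the spread between these samples, which may be technical.

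Notch receptors are transmembrane proteins that are activated by Delta or Jagged proteins on a neighbouring cell. Binding and internalisation of the ligand expose the receptor to ADAM proteases and then to gamma-secretase, and the released intracellular domain enters the nucleus and joins RBPJ to switch on target genes, many of them of the her and hey families. The pathway is known for keeping neural progenitors from differentiating, for arterial identity, where Dll4 and Notch1 act, and for smooth muscle and pericyte coats, where Notch3 acts. Zebrafish carry duplicates of several mammalian genes, hence the pairs notch1a and notch1b, and jag1a and jag1b.

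Library totals ran from 12054844 to 33305326 counts, and every knockout library was deeper than every MYCN-only library. Levels are given as CPM, that is counts scaled to a shared total after TMM normalization, and 1 count was worth 0.0326 to 0.0889 CPM. Sympathetic identity was readable in all libraries, with the catecholamine enzyme gene th at 1664 to 4868 CPM. gas7a, the only gas7 symbol in the table, ranged from 10.03 to 14.85 CPM in knockout and from 9.69 to 32.7 CPM in MYCN-only libraries, and its level does not check the genotype labels. Knockout libraries 2 and 3 stood apart through egg and ovary transcripts: the summed level of 27 measured ovary and oocyte genes was 8307 and 10480 CPM there, against 73.9 CPM in knockout library 1 and 55.2 to 148 CPM with MYCN alone. Each receptor and each tested ligand is therefore also given without these libraries, in a comparison of knockout library 1 with the MYCN-only libraries that assumes the lone library varies like the others.

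Of the 10 genes, 9 had enough counts to be tested. Only dla did not, with 3 to 21 counts in a library. In edgeR's quasi-likelihood test over all genes 0 of the 9 passed at an adjusted p under 0.05, as did 0% of all 12821 tested genes. At an unadjusted p under 0.05, 0 members were higher and 2 were lower (notch3 and jag1b), beside 11.5% of all tested genes higher and 7.57% lower. DESeq2 called 1 member, notch3, as lower, where it called 4.06% of all genes lower and 6.34% higher, and limma-voom called 0, beside 0.0078% of all genes. The knockout and MYCN-only libraries did not overlap for 3 members, all lower in knockout (notch1b, notch3 and dld), while of all tested genes 12.3% were lower and 11.6% higher without overlap. The log2 fold change was below 0 for 7 of the 9 members, with a median of -0.41, against 47.6% of all tested genes and a median of 0.04. With upper-quartile scaling 7 of 9 members were again below 0, with a median of -0.58, and the median of all genes was -0.14.

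**Figure D1:**
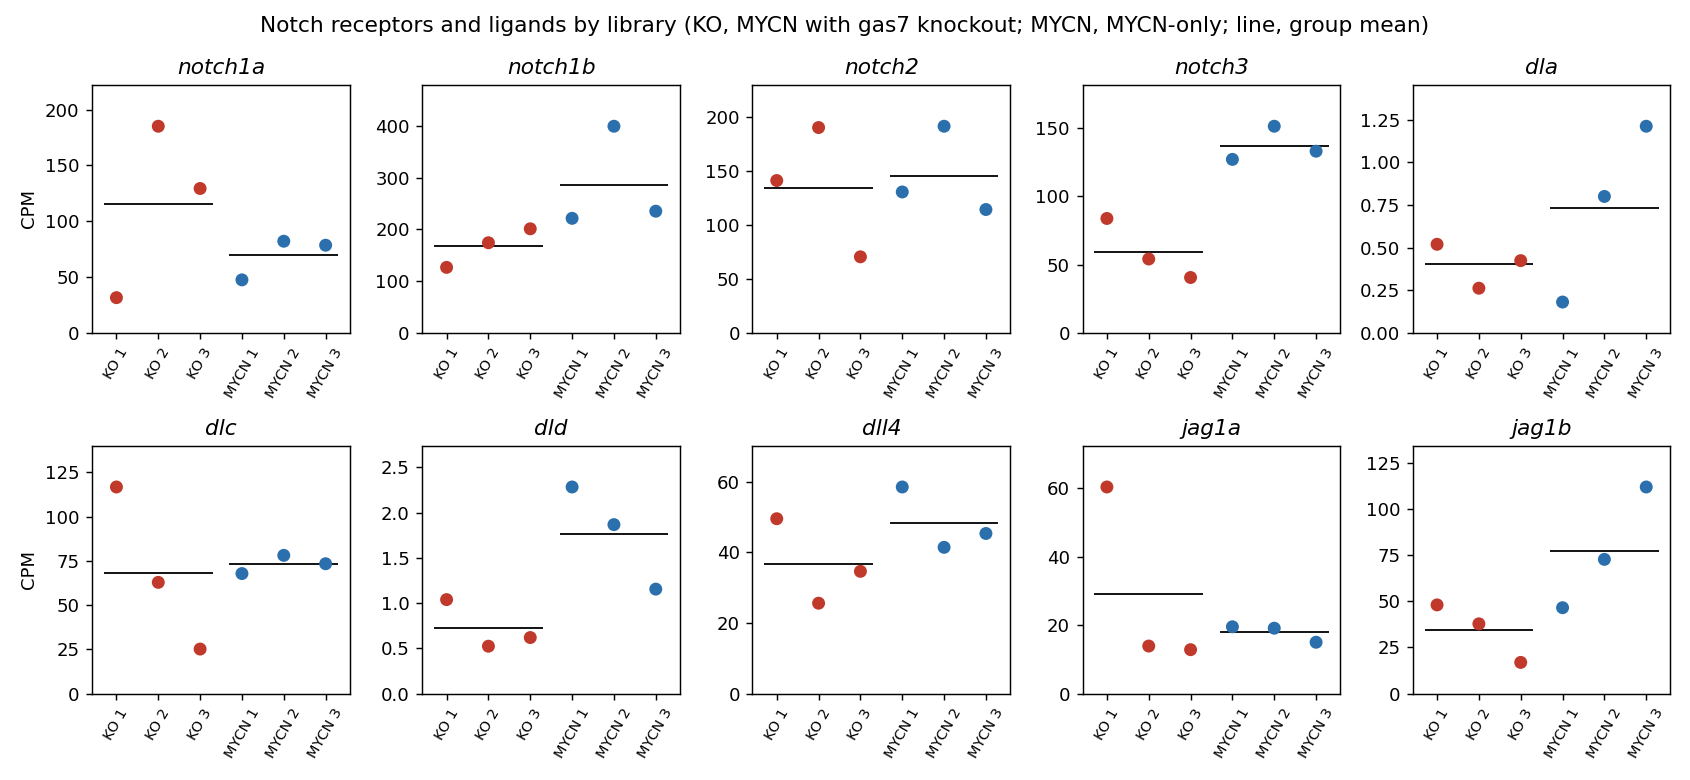
Level of each of the 10 genes in CPM (vertical axes, linear from 0) in knockout (KO, red) and MYCN-only (MYCN, blue) libraries; points are libraries and lines are group means. notch3 lies at 40.5 to 83.8 CPM in knockout and at 127 to 151 CPM in MYCN-only libraries, while notch1a and jag1a have their highest points in different knockout libraries.

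Among the receptors, notch3, whose mammalian counterpart is known from vascular smooth muscle and pericytes, showed the clearest separation. Its level was 83.8, 54.1 and 40.5 CPM in knockout libraries 1, 2 and 3, against 127, 151 and 133 CPM in MYCN-only libraries 1, 2 and 3. All 3 knockout libraries lay below the lowest MYCN-only library, and the MYCN-only libraries lay close together. Knockout tumours had a mean of 59.5 ± 22.1 CPM and MYCN-only tumours one of 137 ± 12.6 CPM (SD, n = 3), and the log2 fold change was -1.21 (SE 0.31; edgeR adjusted p = 0.183). notch3 passed as lower in DESeq2 (adjusted p = 0.0189). It also passed when edgeR was run without knockout library 1 (log2 fold change -1.54, adjusted p = 0.00902), where 3.51% of all tested genes were called lower and 11.2% higher. In knockout library 1 alone its log2 fold change was -0.70 and did not pass (adjusted p = 0.248). In bulk tumours, fewer cells of a type and less RNA per cell cannot be told apart. Of 14 tested genes of mural cells and fibroblasts, 11 had a log2 fold change below 0, beside 47.6% of all tested genes. Of these, 5 did not overlap, where 12.3% of all tested genes were lower without overlap. Above 0 were 3 genes, rgs5a (0.20), kcne4 (0.49) and pdgfra (0.0045), with overlapping groups and named after their values were seen. For rgs5a the knockout levels were 6009, 1490 and 2100 CPM, with 2054 to 3254 CPM in the MYCN-only group. The summed list was likewise highest in knockout library 1 (6492 CPM, MYCN-only 4377 to 4974 CPM), where notch3 lay below every MYCN-only library. The smooth muscle myosin gene myh11a stood at 162, 118 and 80.4 CPM in knockout and at 237 to 256 CPM in MYCN-only libraries, while the pericyte gene pdgfrb had 0 counts in every library, as did 508 genes of the table. Whether this reflects the annotation, the counting or the level was not tested. notch3 made up 31.5% to 34.1% of the summed notch3 and myh11a levels in knockout and 33.1% to 38.2% in MYCN-only libraries, a ratio chosen after the values were seen, and these ranges overlapped. The part of mural cells in the level of notch3 was not tested.

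notch1b was the other receptor whose groups did not overlap. Its levels were 127, 174 and 201 CPM in knockout libraries 1, 2 and 3, against 222, 399.9 and 235 CPM with MYCN alone. The gap was narrow between knockout library 3 and MYCN-only library 1, and MYCN-only library 2 stood well above the rest. Its log2 fold change was -0.77 (SE 0.33; edgeR adjusted p = 0.265), -1.16 in knockout library 1 alone, and -0.42 without MYCN-only library 2. notch1b thus had its lowest level in knockout library 1, unlike notch3.

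The paralogue notch1a had a different profile from notch1b. The levels of notch1a in knockout libraries 1, 2 and 3 were 31.5, 185 and 129 CPM, against 47.4, 82.0 and 78.5 CPM with MYCN alone. Knockout libraries 2 and 3 were the highest of all 6 and knockout library 1 the lowest, so the knockout group enclosed the MYCN-only group. The log2 fold change was 0.73 over all libraries (SE 0.61; edgeR adjusted p = 0.540), became 1.18 without knockout library 1 (adjusted p = 0.0525) and turned to -1.13 in knockout library 1 alone (adjusted p = 0.266). The high libraries were those with egg and ovary transcripts, among them the egg coat gene zp3 at 1193 and 1635 CPM against 5.14 CPM in knockout library 1. The part of ovarian cells in the level of notch1a was not tested. Of the summed notch1a and notch1b levels, notch1a made up 51.5% and 39.1% in knockout libraries 2 and 3, but 19.9% in knockout library 1 and 17.0% to 25.0% with MYCN alone. These shares depend on the lengths of both genes and are compared only between libraries.

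notch2 did not separate the genotypes. Its levels were 141, 190.5 and 70.5 CPM in knockout libraries 1, 2 and 3, against 131, 192 and 114 CPM with MYCN alone. The groups overlapped almost fully, and knockout libraries 2 and 3, alike in their ovary transcripts, held nearly the highest and the lowest level. Its log2 fold change was -0.12 (SE 0.41; edgeR adjusted p = 0.901), and -0.030 in knockout library 1 alone. Summed over the 4 receptors, the level was 383, 604 and 442 CPM in knockout and 527, 825 and 561 CPM in MYCN-only libraries, and these overlapped.

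Among the Delta ligands, dlc and dll4 were well counted and dla and dld were close to the detection limit. dlc, which acts in zebrafish somite segmentation and in the vasculature, had 117, 62.9 and 25.1 CPM in knockout libraries 1, 2 and 3, against 67.8, 78.1 and 73.4 CPM with MYCN alone. The MYCN-only libraries were close together, with knockout libraries above and below them. dlc had a log2 fold change of -0.10 overall (SE 0.51; edgeR adjusted p = 0.936), but 0.69 in knockout library 1 alone and -0.73 without it. The SD of dlc was 46.1 CPM among knockout libraries and 5.15 CPM among MYCN-only libraries (n = 3).

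dll4, the ligand of arterial and sprouting endothelium, had 49.5, 25.6 and 34.6 CPM in knockout libraries 1, 2 and 3, against 58.5, 41.4 and 45.4 CPM with MYCN alone. Knockout libraries 2 and 3 were the lowest of all 6, and knockout library 1 lay within the MYCN-only range. Its log2 fold change was -0.41 (SE 0.31; edgeR adjusted p = 0.506), -0.69 without knockout library 1 and 0.04 in knockout library 1 alone. The summed level of 21 measured endothelial genes was 1209 CPM in knockout library 1, 496 and 479 CPM in knockout libraries 2 and 3, and 876 to 938 CPM with MYCN alone. Of these genes 17 had a log2 fold change below 0 and 4 above, and 5 were lower without overlap in every knockout library, library 1 included (fli1a, egfl7, esama, efnb2a and ephb4a, named after their values were seen). Of all tested genes 12.3% were lower without overlap. The vascular growth factor receptor gene kdrl was at 251, 83.9 and 91.3 CPM in knockout and at 160 to 198 CPM in MYCN-only libraries. As a share of the summed endothelial level, dll4 was 4.1%, 5.16% and 7.23% in knockout libraries and 4.41% to 6.61% in MYCN-only libraries, with overlap. The part of endothelial cells in the level of dll4 was not tested.

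dld was read at 20, 14 and 19 counts in knockout libraries 1, 2 and 3, against 38, 21 and 20 counts in the shallower MYCN-only libraries. In CPM these were 1.04, 0.523 and 0.619 against 2.28, 1.87 and 1.15, so that the groups did not overlap, by a margin of a few counts. Its log2 fold change was -1.28 (SE 0.57; edgeR adjusted p = 0.279), and -0.75 in knockout library 1 alone. dla had 10, 7 and 13 counts in knockout and 3, 9 and 21 counts in MYCN-only libraries, or 0.262 to 0.519 and 0.180 to 1.21 CPM. The MYCN-only libraries of dla covered the whole range of the knockout libraries. dlb, the remaining Delta ligand of the table, reached no more than 0.554 CPM. dla and dld are known as ligands of neural progenitors in the zebrafish embryo.

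The Jagged paralogues differed from each other in which library was high. For jag1a the level was 60.4 CPM in knockout library 1, 13.9 and 12.8 CPM in knockout libraries 2 and 3, and 19.5, 19.1 and 15.0 CPM with MYCN alone. Knockout library 1 was 3.38 times the MYCN-only mean, while knockout libraries 2 and 3 lay below every MYCN-only library. Over all libraries the log2 fold change was 0.70 (SE 0.64; edgeR adjusted p = 0.580), and it turned to -0.42 without knockout library 1 (adjusted p = 0.302). In knockout library 1 alone it was 1.77 (adjusted p = 0.101). When the mean of the ovary list, which sets knockout libraries 2 and 3 apart, was a covariate, jag1a passed as higher (edgeR log2 fold change 1.99, adjusted p = 0.0356), as did 1.11% of all tested genes, with 0.234% lower.

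The levels of jag1b were 48.0, 37.7 and 16.8 CPM in knockout libraries 1, 2 and 3, against 46.5, 72.6 and 112 CPM with MYCN alone. The groups overlapped only through knockout library 1, which lay just above MYCN-only library 1. For jag1b the log2 fold change was -1.17 (SE 0.48; edgeR adjusted p = 0.259), -1.50 without knockout library 1 (adjusted p = 0.105) and -0.68 in knockout library 1 alone. jag1a made up 55.7%, 26.9% and 43.2% of the summed jag1a and jag1b levels in knockout libraries 1, 2 and 3 and 29.6%, 20.8% and 11.8% with MYCN alone. These shares overlapped between the groups. Over all 6 ligands the summed level was 276 CPM in knockout library 1, 141 and 90.5 CPM in knockout libraries 2 and 3, and 195 to 248 CPM with MYCN alone. Ligand reads were thus fewest in the libraries with ovary transcripts, in contrast to the receptor sum.

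**Figure D2:**
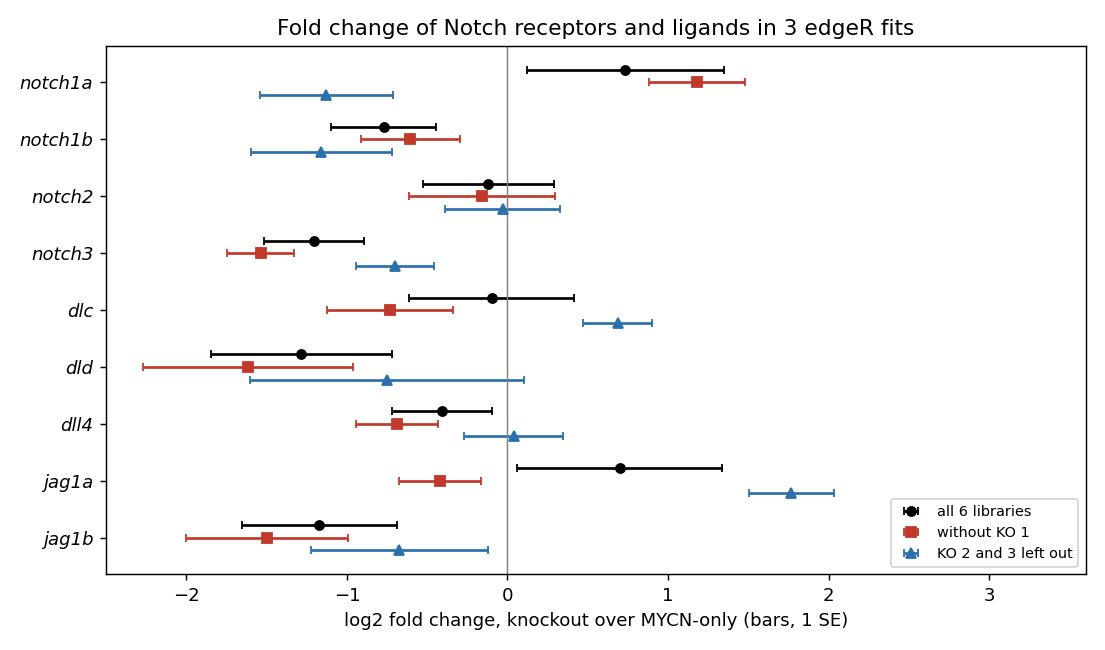
Log2 fold change of knockout over MYCN-only (horizontal axis; bars, 1 SE) for the 9 tested genes in edgeR fits to all 6 libraries (black), without knockout library 1 (red) and with knockout libraries 2 and 3 left out (blue). notch3, notch1b, dld, jag1b and notch2 lie below 0 in all 3 fits, with notch2 within 1 SE of 0 in each. notch1a, dlc, dll4 and jag1a change sign between the fits.

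The rest of the pathway was described by lists chosen with earlier results of these data known. Of 115 listed genes 87 were in the table and 65 were tested, 28 above and 37 below 0 in log2 fold change, which became 20 and 45 with upper-quartile scaling. edgeR called 0 of them over all genes. At an unadjusted p under 0.05 in edgeR 5 were higher and 7 lower, beside 11.5% and 7.57% of all tested genes. DESeq2 called 3 as higher (1 of them her7, which has 0 counts in MYCN-only libraries) and 1 as lower, beside 6.34% and 4.06% of all genes. limma-voom called 0 of them. Without overlap between the groups 6 were higher and 13 lower, beside 11.6% and 12.3% of all tested genes. The higher genes at unadjusted p and without overlap also include her7 and her1. The lower genes include insm1b in both counts and her2 in the count without overlap. Each of these genes passed the low-count filter through the group where it was higher. The median log2 fold change of the 65 tested genes was -0.15. The ligand jag2b, a relative of jag1a and jag1b, had a level of 60.4 to 85.2 CPM in knockout and 69.0 to 86.3 CPM in MYCN-only libraries. The groups overlapped, with a log2 fold change of -0.03 (SE 0.23). The noncanonical ligand genes dner and cntn1b and the microfibril gene mfap2 had log2 fold changes of 1.02, -0.01 and -0.48 and overlapping groups.

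Of 10 tested genes of receptor cleavage and maturation, which include the proteases that release the receptor, 7 were above 0 (median log2 fold change 0.15). The count above 0 fell to 4 with upper-quartile scaling (median -0.016) and to 5 without knockout library 1 (median -0.08). The gamma-secretase subunit gene aph1b was read at 41.8, 60.5 and 63.1 CPM in knockout and at 28.5, 27.6 and 28.5 CPM in MYCN-only libraries. The groups were well apart (log2 fold change 0.97, SE 0.24; edgeR adjusted p = 0.182). aph1b passed as higher in DESeq2 (adjusted p = 0.011), and in edgeR when knockout library 1 was left out (adjusted p = 0.0123). The other gamma-secretase genes psenen and ncstn had log2 fold changes of 0.44 and -0.40. Among the sheddase genes, for the cut that precedes gamma-secretase, adam10b did not overlap in the other direction (log2 fold change -0.60, edgeR adjusted p = 0.226). It stood at 27.4 to 35.4 CPM in knockout and 42.8 to 51.3 CPM in MYCN-only libraries. The sheddase genes adam10a and adam17a, named after their values were seen, had overlapping groups and log2 fold changes of 0.39 and 0.15. The level of adam10a was 414, 123 and 109 CPM in knockout and 122 to 194 CPM in MYCN-only libraries.

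Genes listed for receptor glycosylation lay on both sides of 0, with 5 of 7 tested genes above 0. The count above 0 was 4 with upper-quartile scaling and 3 without knockout library 1 (median -0.0052). pofut1, which adds O-fucose, stood at 26.3, 24.4 and 39.8 CPM in knockout and at 15.11 to 18.1 CPM in MYCN-only libraries (log2 fold change 0.83, SE 0.28; edgeR adjusted p = 0.214). gxylt1b, which extends O-glucose with xylose, stood at 1.27 to 1.51 CPM against 2.48 to 4.80 CPM (log2 fold change -1.48, SE 0.46; edgeR adjusted p = 0.202), and it passed as lower in DESeq2 (adjusted p = 0.0239). Both genes had groups that did not overlap. The fringe gene lfng had a log2 fold change of -0.59 (-1.21 without knockout library 3) and pofut2 one of 0.51, both with overlap.

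Of 8 tested genes of ligand ubiquitination and endocytosis, 6 were below 0. The ubiquitin ligase gene mib1, which the sending cell needs to activate Notch, was read at 124, 123 and 102 CPM in knockout and at 158, 157 and 174 CPM in MYCN-only libraries. The groups did not overlap, and the log2 fold change was -0.49 (SE 0.20; edgeR adjusted p = 0.262). The related ligase gene neurl1b and the epsin gene epn1 did not overlap either (log2 fold changes -1.05, or -1.72 without knockout library 2, and -0.35), whereas neurl1ab had 1.07. Among the turnover genes, zgc:66440, which RefSeq lists as the Deltex gene dtx3, stood at 66.6, 36.8 and 48.8 CPM in knockout and at 20.9 to 28.1 CPM in MYCN-only libraries. It did not overlap and passed as higher in DESeq2 (log2 fold change 1.05, adjusted p = 0.0343), though not in edgeR (adjusted p = 0.191). In the same list of receptor inhibitors and turnover, numb, itchb and the Deltex gene dtx1 had log2 fold changes of -0.21, -0.43 and -0.45.

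In the nucleus, the DNA-binding partner of Notch is encoded by rbpja and rbpjb. Of 9 tested genes of the nuclear complex and co-repressors, 4 were above and 5 below 0 in log2 fold change. Without overlap 1 was higher and 4 were lower, beside 11.6% and 12.3% of all tested genes. rbpja, named after its values were seen, had a log2 fold change of 0.06 (SE 0.27) and overlapping groups. rbpjb stood at 33.5, 31.4 and 31.2 CPM in knockout and at 64.1, 40.9 and 44.1 CPM in MYCN-only libraries, without overlap (log2 fold change -0.63, SE 0.25; edgeR adjusted p = 0.247). The co-repressor gene ncor1, whose product joins RBPJ when Notch is off, was lower in each knockout library than in any MYCN-only library, with a log2 fold change of -0.65. So was the acetyltransferase gene kat2b, whose product works with the active complex (-1.07). None of rbpjb, ncor1 and kat2b passed in edgeR (adjusted p = 0.220 to 0.247), DESeq2 or limma-voom.

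Genes of the her, hey and nrarp families were listed by family, and which of them are Notch targets in these tumours was not tested. They were read at low levels. The summed level of the 24 in the table was 44.7 to 83.5 CPM in knockout and 57.3 to 83.6 CPM in MYCN-only libraries. Of the 15 tested, 4 were above and 11 below 0, with a median log2 fold change of -0.21, which was -0.41 without knockout library 1 and -0.07 in the comparison of knockout library 1 alone. her7, a gene of the embryonic segmentation clock, had 11, 39 and 139 counts in knockout libraries 1, 2 and 3 and 0 counts in all MYCN-only libraries. Against a floor of 3 counts over the MYCN-only group, its level pooled over the knockout libraries (2.46 CPM) was at least 37.1-fold higher. Most of these knockout counts were in knockout library 3, and knockout library 1 had 0.571 CPM. The list median with her7 at this bound was again -0.21. her7 passed the low-count filter only through the knockout libraries, so its own test is not given here. It is still included in the counts of tested genes above. Its neighbour on the chromosome is her1, with 0 protein-coding genes between them in RefSeq GRCz12tu. her1 stood at 1.25, 1.27 and 1.50 CPM in knockout and at 0.120 to 0.577 CPM in MYCN-only libraries. her2 stood at 0.312 to 0.784 CPM in knockout and at 0.961 to 2.22 CPM in MYCN-only libraries. her1 passed the low-count filter through the knockout libraries and her2 through the MYCN-only libraries, so their own tests are not given either. hey1 was lower without overlap, with a log2 fold change of -1.02. Members of the her4 and her15 families are near-identical copies in tandem, between which reads could have been divided.

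Proneural factors, which Notch targets hold in check, were mostly under the filter, and 4 of 15 were tested. atoh1a stood at 0.571 to 0.822 CPM in knockout and at 1.51 to 2.64 CPM in MYCN-only libraries, without overlap (log2 fold change -1.51, edgeR adjusted p = 0.214). insm1b stood at 0.293 to 0.448 CPM in knockout and at 0.635 to 2.04 CPM in MYCN-only libraries. It passed the low-count filter only through the MYCN-only libraries, so its own test is not given here. insm1a was highest in knockout library 3, at 119 CPM, against 3.20 to 21.6 CPM in the other libraries. ascl1a, a factor of sympathetic precursors, had a log2 fold change of 0.01 (SE 0.86). neurod6a and neurod6b, named after their values were seen, were under the filter and read at 3.21 and 5.60 CPM (neurod6a) and at 1.46 and 5.73 CPM (neurod6b) in knockout libraries 2 and 3, and never above 0.178 CPM in the other 4 libraries.

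**Figure D3:**
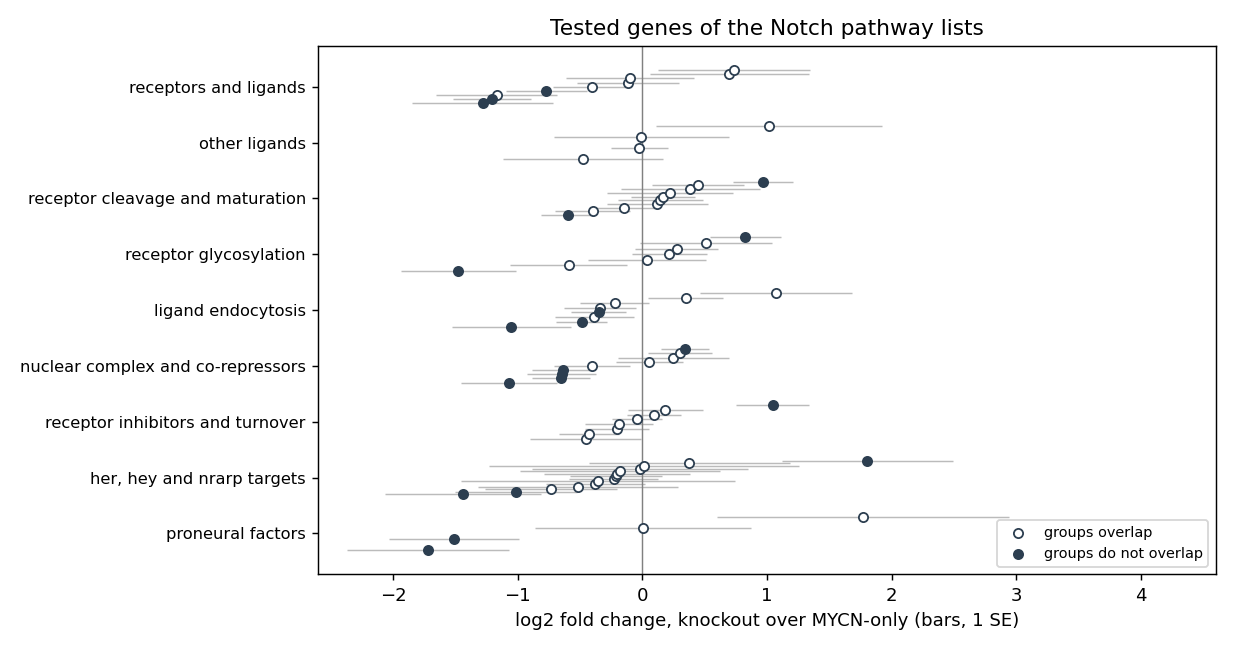
Log2 fold change of knockout over MYCN-only (horizontal axis; bars, 1 SE) for the tested receptors and ligands and the tested genes of the other pathway lists; filled points have groups that do not overlap. her7, with 0 counts in MYCN-only libraries, is left out. her1, her2 and insm1b are drawn, though each passed the low-count filter through the group where it was higher. The list of co-repressors holds a filled group near -0.65, and the protease list spans -0.60 to 0.97.

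Markers of the cell types in which Notch genes are used differed between the libraries and are given here for the whole lists. The mural and fibroblast list summed to 6492, 2561 and 2521 CPM in knockout libraries 1, 2 and 3 and to 4377 to 4974 CPM in MYCN-only libraries, with knockout library 1 the highest of all 6. In this sum rgs5a alone had 1490 to 6009 CPM, and the genes other than rgs5a summed to 484, 1072 and 420 CPM in knockout and to 1123 to 2920 CPM in MYCN-only libraries, a sum set apart after the values were seen. Of 11 tested Schwann cell and neural crest genes 10 were below 0 in log2 fold change, with sox10 at 1.01 to 1.97 CPM in knockout and 3.98 to 10.8 CPM in MYCN-only libraries, and erbb3b at no more than 0.444 CPM anywhere. The 8 tested kidney tubule genes were below 0 in 7 cases, and their list mean was lowest in knockout libraries 2 and 3. The list means of endothelium, noradrenergic, Schwann cell and neural crest, neuron and intestine genes were lowest there too. Those of the mural and fibroblast, pancreas and ovary lists were not. The levels of notch3, dlc, dld, dll4, jag1a and jag1b were also lowest in knockout libraries 2 and 3. Intestine (5 of 5) and pancreas (7 of 7) genes were all below 0. Neuron genes lay on both sides of 0, with 2 above and 7 below 0. Of these uchl1 was higher without overlap, at 267 to 372 CPM in knockout and 55.9 to 114 CPM in MYCN-only libraries (log2 fold change 1.94; DESeq2 adjusted p = 1.9e-05), and stmn2b was lower (-1.89; DESeq2 adjusted p = 0.0451), though neither passed in edgeR (adjusted p = 0.174 and 0.215). Of 16 noradrenergic genes 7 were above and 9 below 0. There, 4 were lower without overlap and 0 higher, beside 12.3% and 11.6% of all tested genes. DESeq2 called 3 of these as lower, namely ddc (log2 fold change -1.90), phox2a (-1.13) and tfap2a (-1.12), where edgeR called 0. It called 4.06% of all genes lower. These 5 genes were named after their values were seen. Of the ovary list, 20 of 22 tested were above 0. Some passed the low-count filter only through knockout libraries, among them zp2.2 and zp3a.1 with 0 counts in every MYCN-only library. Others, such as zp2.1, zp2.5 and nanos3, had at most 2 counts in any MYCN-only library. The count of 20 includes these genes, and no direction is read from it. The list members bmp15 and figla had 0 counts in knockout library 1. In that library zp3 (5.14 CPM) and buc (2.91 CPM) lay above every MYCN-only library, which had at most 0.711 and 0.721 CPM. These ovary genes were named after their values were seen. The part of each of these cell types in the levels of the Notch genes was not tested.

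**Figure D4:**
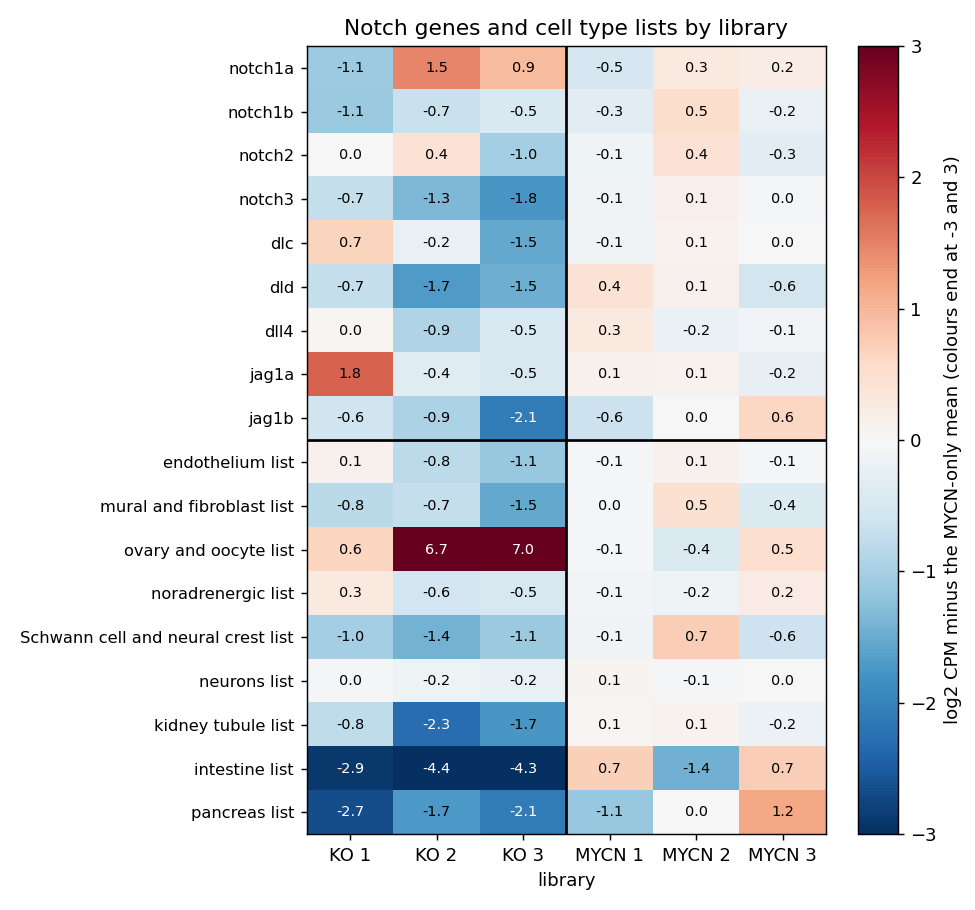
Log2 CPM minus the mean of the MYCN-only libraries, for the 9 tested Notch genes (above the line) and the mean of each cell type list (below it), by library; red is higher, blue is lower, and the colours end at -3 and 3. Only the list rows include a prior count of 2. notch1a is high in knockout libraries 2 and 3, where the ovary list is at 6.66 and 6.96, and jag1a is high in knockout library 1.

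As the libraries differ in depth and tissue makeup, the following values of Pearson's r are descriptions. For each tested member the most similar expression profiles were sought among the tested genes by this r of log2 CPM over the 6 libraries. Members, and symbols that hold a colon or start with LOC, were left out of this search. For notch3 these were the channel gene trpc4a (r = 0.997) and slc35a4 (r = 0.995), and trpc4a stood at 9.24, 4.15 and 2.96 CPM in knockout and at 16.9 to 22.3 CPM in MYCN-only libraries. For jag1a they were vip2 (r = 0.996), at 10330 CPM in knockout library 1 and at most 4.44 CPM in the other 5, and mpx, the neutrophil myeloperoxidase gene (r = 0.995), at 297.5 CPM in knockout library 1 and 25.2 to 52.2 CPM in the others. For jag1b they were foxc1a, a transcription factor gene of mesenchyme (r = 0.991), and fam204a (r = 0.990). For notch1a they were atf7b (r = 0.994) and mtr (r = 0.991), for notch1b tmtops2a and kcnk18 (both r = 0.992), and for notch2 the transcription factor gene zeb2a (r = 0.992) and ap1m3 (r = 0.989). For dlc they were cyth1a (r = 0.999) and bmp10 (r = 0.995), for dll4 nmrk2 (r = 0.999) and cops2 (r = 0.989), and for dld sult2st1 (r = 0.992) and map2k5 (r = 0.991). With 6 libraries such values are common: between 17 genes (notch2) and 137 genes (notch3) exceeded an r of 0.95, counted over all tested genes with no symbols left out.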

How the data were processed

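Total RNA of zebrafish tumours was made into stranded paired-end libraries, per the labels' protocols. The authors used featureCounts 1.4.6 with Subread, TopHat2 2.0.14 and Bowtie2 2.2.6 on danRer10, per the submitters' processing notes. The sources used here do not give the annotation, strand setting or handling of multiply mapped reads, which leaves reads of overlapping genes and of near-identical copies uncertain. The table deposited by the authors holds raw counts by gene symbol.

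Libraries were grouped by genotype. Genes were filtered with filterByExpr (12821 kept), scaled by TMM and compared with edgeR's quasi-likelihood test, with Benjamini-Hochberg adjustment over all tested genes and a threshold of 0.05. SE was the absolute log2 fold change divided by the root of F. The biological coefficient of variation was 52.5%. CPM used TMM-scaled totals, and log2 CPM a prior count of 2. List genes missing by symbol were matched through RefSeq synonyms. Members and lists were chosen with earlier results of these data known. Genes named are all members, up to 4 genes of smallest p per pathway list, 2 genes of most similar profile per member, and those said to be chosen later; 1 gene of this rule is not reported here. Alternatives changed the scaling, the low-count filter, the dispersion fit or the tool (DESeq2, limma-voom), added a replicate block or the ovary list mean, or left out single libraries or knockout libraries 2 and 3 together. In that last fit the remaining knockout library was taken to vary like the MYCN-only libraries. The test was checked on simulated counts, with recovery required only at a spread below that of these data. That check does not show the power of the test here. No pair of libraries was a duplicate (chi-square over degrees of freedom at least 65.2). Versions were edgeR 4.0.16, DESeq2 1.42.0 and limma 3.58.1 in R 4.3.3.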

Additional observations from a re-analysis of the deposited data

How the results depend on the processing

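Depth limited dla and dld, whose values rest on a few counts. The number of genes called was 0 over all libraries, with DESeq2 size factors, upper-quartile factors, either other low-count filter and robust dispersion. It was 1323 in DESeq2, 1 in limma-voom, 9 with knockout libraries 2 and 3 left out, 172 with the ovary list mean as covariate, and 0 to 1923 when a library was left out, with the highest value without knockout library 1 and 4 without MYCN-only library 2. Of Notch receptor and ligand genes, DESeq2 called 1 (notch3, lower), the ovary covariate 1 (jag1a, higher) and leaving out a library 0 to 1. The jag1a call rests on knockout library 1. The replicate numbers did not pair the libraries (correlations of same-numbered deviations -0.0928, -0.153 and 0.19, and not every library correlated best with its own number). With the replicate block 8 genes were called, 0 of them Notch receptors or ligands.

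Over all alternatives, 130 of the members' values kept direction and side of the threshold, 3 passed newly and 11 changed direction. With knockout libraries 2 and 3 left out the log2 fold change became -1.13 (notch1a), 0.69 (dlc), 0.040 (dll4), 0.17 (jag2b), -1.11 (dner) and -1.21 (insm1a). With the ovary covariate, which likewise compares mainly knockout library 1 with the MYCN-only libraries, it became -1.33 (notch1a), 0.074 (notch2), 0.84 (dlc), 0.079 (dll4), 0.17 (jag2b), -1.47 (dner) and -1.64 (insm1a). With it, notch3 (-0.61), dld (-0.62) and kat2b (-0.43) kept their direction at a smaller size. Leaving out single libraries gave -0.47 to 0.19 for notch2, -0.73 to 0.30 for dlc, -0.42 to 1.06 for jag1a, -0.13 to 0.11 for jag2b, -0.017 to 2.01 for dner, -0.42 to 0.74 for cntn1b, -0.0052 to 0.80 for pofut2, -0.42 to 0.79 for ascl1a and -0.28 to 2.29 for insm1a. For cntn1b the value was 0.0021 with no low-count filter, 0.29 in limma-voom and 0.13 with the replicate block, and for ascl1a -0.15 with upper-quartile factors and -0.084 in limma-voom. The cause was not tested for any of these.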
